A study of Populus tremula x Populus alba with 24 samples.

Results

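Phenylalanine ammonia-lyase (PAL) is encoded in poplar by a small gene family, and the 5 genes PAL1 to PAL5 were followed here in roots given lipochitooligosaccharides (LCO). These are modified chitin oligomers by which rhizobia, and some fungi, are perceived by their host plants. The genes were taken by identifier, with names that the files themselves do not give: PAL1 is Potri.006G126800, PAL2 Potri.008G038200, PAL3 Potri.016G091100, PAL4 Potri.010G224100 and PAL5 Potri.010G224200. They are 5 of the 42950 genes in the table, and all 5 were among the 25636 genes (59.7%) that averaged 1 TPM or more and were tested. TPM is a relative transcript abundance corrected for transcript length and library total, so that levels of different genes can be set side by side.

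PAL removes ammonia from phenylalanine and leaves cinnamic acid. This is the entry step of the phenylpropanoid pathway, which feeds lignin, flavonoids, condensed tannins and other phenolic compounds, and in many plants PAL genes respond to wounding, microbes and nutrient supply. In Populus trichocarpa the family falls by sequence into a subgroup with PAL1 and PAL3 and a subgroup with PAL2, PAL4 and PAL5.

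All libraries come from roots of a single clone, Populus tremula x alba 717-1B4, rooted in vitro and then kept for 10 days on vertical plates of Woody Plant Medium with little phosphate (7 μM) and little nitrogen (0.5 mM). Per the labels' protocols, roots were flooded for 1 h, from 3 h after dawn, with 10 nM LCO purified from Rhizobium sp. IRBG74 or with 0.005% ethanol as the control solution. The control was collected at time 0, and LCO-treated roots at 7 times from 15 min to 24 h. Each library is a pool of 4 plants that the labels call a biological replicate; beyond that, p-values measure only the spread between these pools. Of 24 labelled samples 22 were analysed here, 3 per group except for 2 at 30 min (replicates 1 and 3) and 2 at 2 h (replicates 1 and 2). Every time is compared with the same time 0 control, so LCO, time since flooding and, except at 24 h, time of day cannot be told apart. The labels of the time 0 libraries do not name which of the solutions those roots received.

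Read depth is unknown for these libraries. Genes listed at 0 ranged from 9029 to 13313 per library, the highest being 13313 in 30 min replicate 3, 12911 in 1 h replicate 3 and 12139 in 15 min replicate 2. The other libraries of 15 min and 30 min had 9241 to 10503, and the other libraries of 1 h and 2 h had 11176 to 12054. The median SD within a group, over the genes tested, was 0.319 at 15 min, 0.303 at 30 min and 0.272 at 1 h on the log2 scale, against 0.173 to 0.205 in the other groups. The tissue label was not checked against marker genes, because no gene annotation was used here.

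PAL transcripts were abundant in the control roots, and the mean of each of the 5 genes was higher at every time after LCO, with the largest log2 fold change for PAL2 at 8 h. The summed level of the 5 genes was 484 ± 104 TPM in the control (SD, n = 3), 903 ± 131 at 15 min, 824 ± 253 at 30 min (n = 2) and 649 ± 46.4 at 1 h. It stood at 739.8 ± 61.7 TPM at 2 h (n = 2), 792 ± 58.1 at 4 h, 1046 ± 137 at 8 h and 745 ± 86.3 at 24 h. The summed level was thus 1.87 times the control mean at 15 min, 1.34 times at 1 h and 2.16 times at 8 h. Its lowest value in any treated library, 613 TPM, lay above the highest control library, 548 TPM. These are bulk roots, in which more cells of a type and more RNA per cell cannot be told apart.

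The members differed widely in level. Over the 22 libraries PAL1 averaged 284 TPM and PAL2 269 TPM, ranks 485 and 511 among the 42950 genes. PAL3 averaged 168 TPM and ranked 878. PAL4, at 39.0 TPM, ranked 4075, and PAL5, at 11.8 TPM, ranked 10761. PAL3 came above PAL4, and PAL4 above PAL5, in all 22 libraries, whereas the first place changed: the order PAL1, PAL2, PAL3, PAL4, PAL5 held in 11 libraries, and in 10 libraries PAL2 stood above PAL1. The remaining library, 15 min replicate 3, had PAL3 above PAL2.

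**Figure D1:**
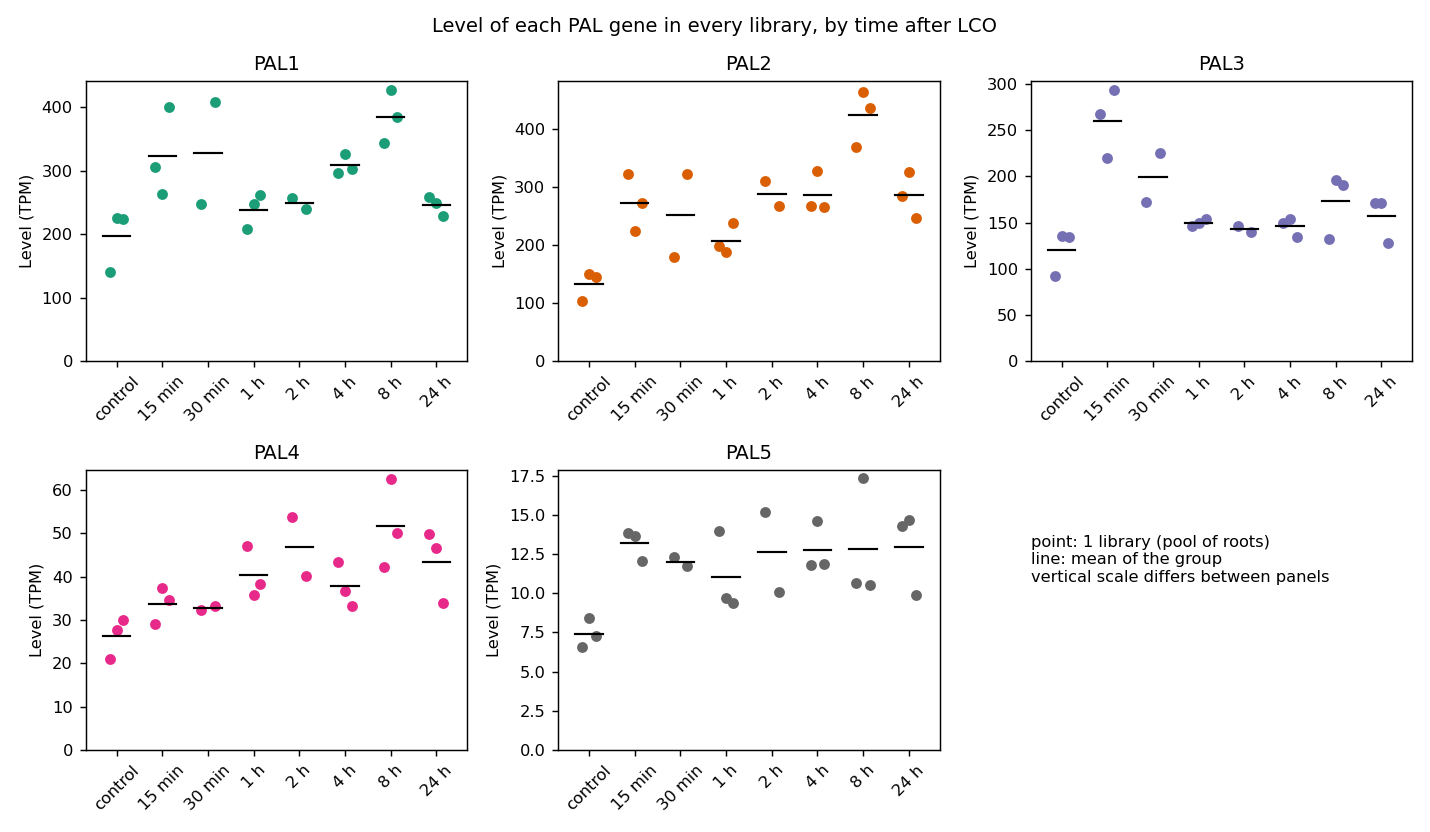
Level of each PAL gene (TPM, vertical axis, starting at 0) in each of the 22 libraries, by group. Points are libraries and lines group means; PAL2 reaches 370 to 465 TPM at 8 h against 103 to 151 TPM in the control, and PAL3 is highest at 15 min.

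PAL2 changed most. Its control libraries held 103, 151 and 145 TPM. The level was 323, 224 and 272 TPM at 15 min, 180 and 323 TPM at 30 min, and 198, 188 and 238 TPM at 1 h. From 2 h on it was 310.2 and 267 TPM (2 h), 268, 327 and 267 TPM (4 h), 369.9, 465 and 437 TPM (8 h) and 285, 327 and 247 TPM (24 h). All 19 treated libraries lay above all 3 control libraries. For this and the separations of other members below, the share of all genes over several times together was not computed. At single times it was 9.85% (1 h) to 31.3% (8 h) of the genes tested. In limma with Benjamini-Hochberg adjustment over all genes tested, PAL2 exceeded the control at 15 min (log2 fold change 1.04, SE 0.21, adjusted p = 0.00569), 2 h (1.13, adjusted p = 0.00918), 4 h (1.12, adjusted p = 0.00214), 8 h (1.68, adjusted p = 1.87e-05) and 24 h (1.11, adjusted p = 0.000714). Being called higher at 5 or more of the 7 times was shared by 0.269% of the genes tested; PAL5 was called at 4 (4 or more: 1.06% of genes), PAL1 and PAL4 at 3 (4.29%) and PAL3 at 2 (17.4%). At 30 min (0.87, adjusted p = 0.0654) and 1 h (0.66, adjusted p = 0.116) it missed the threshold. The call at 2 h was lost without 2 h replicate 1 (adjusted p = 0.13) or control replicate 1 (0.0519).

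The time with the highest mean of PAL2, and also of PAL1 and PAL4, in these same values is 8 h. That makes calls of a higher level at 8 h than at other times more likely for these members. PAL2 was also higher in limma at 8 h than at 15 min, by 0.64 on the log2 scale (adjusted p = 0.029), than at 30 min, by 0.81 (0.0124), and than at 1 h, by 1.02 (0.00105). Of all genes tested, 16.7%, 22.9% and 23.9% were called higher in these 3 comparisons. The first was lost without 15 min replicate 2 (adjusted p = 0.115) or replicate 3 (0.0564) or 8 h replicate 2 (0.0993) or replicate 3 (0.0797), and the second without 30 min replicate 1 (0.236). In the order of the group means, from control (lowest) by way of 1 h, then 30 min, 15 min, 24 h, 4 h and 2 h, up to 8 h (highest), no step between neighbours passed the test, the widest step being control to 1 h (0.66) and the smallest adjusted p that of 2 h to 8 h (0.55, adjusted p = 0.0844).

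PAL1, the most abundant member in the control, stood there at 141, 226 and 224 TPM. It was at 306, 263 and 401 TPM at 15 min, 248 and 408 TPM at 30 min, and 208, 248 and 261 TPM at 1 h. Later libraries held 258 and 239 TPM (2 h), 296, 326 and 303 TPM (4 h), 343, 427 and 384 TPM (8 h), and 259, 249 and 229 TPM (24 h). Only 1 treated library, 1 h replicate 1, overlapped the control range, and among treated groups the mean was highest at 8 h and lowest at 1 h. PAL1 exceeded the control at 15 min (log2 fold change 0.72, limma, adjusted p = 0.0377), 4 h (0.68, adjusted p = 0.0447) and 8 h (0.99, SE 0.21, adjusted p = 0.00141). At 30 min, with 2 libraries, the difference was also 0.72 but was not called in limma (adjusted p = 0.103). It was 0.31 at 1 h (adjusted p = 0.512) and 0.37 at 2 h (adjusted p = 0.466). The 24 h difference was 0.35 (95% interval -0.08 to 0.78, adjusted p = 0.196).

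The 8 h call of PAL1 held without any single library (adjusted p 0.000648 to 0.0113). That at 15 min was lost without control replicate 1 (0.205), 15 min replicate 1 (0.0963) or 15 min replicate 3 (0.175), and that at 4 h in 14 of 22 such fits, the highest adjusted p being 0.256 without control replicate 1. PAL1 was higher at 8 h than at 1 h (0.69, limma, adjusted p = 0.0124, and 0.0521 without 8 h replicate 2), a call that 23.9% of genes received. It was also called higher at 8 h than at 2 h (0.62, adjusted p = 0.0479), a call that 16.5% of genes received and that was lost in 15 of 22 fits without 1 library (adjusted p up to 0.222). In the order of its means (control, 1 h, 24 h, 2 h, 4 h, then 15 min level with 30 min, with 8 h highest) no step between neighbours passed the test.

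PAL3 had its highest level at the first time sampled. The control libraries held 92.4, 135 and 135 TPM, and those of 15 min 268, 219 and 293 TPM. At 30 min the level was 172 and 226 TPM, and at 1 h it was 146, 149 and 154 TPM. It then stayed near that level, at 147 and 140.0 TPM (2 h), 149.9, 154 and 135 TPM (4 h), 132, 197 and 190.3 TPM (8 h) and 172, 171 and 127 TPM (24 h). Libraries of 4 h, 8 h and 24 h overlapped the control range, while those of 15 min, 30 min, 1 h and 2 h did not. Against control PAL3 rose at 15 min (log2 fold change 1.11, SE 0.19, limma, adjusted p = 0.00137) and at 8 h (0.51, adjusted p = 0.0405). Of the genes tested, 97.5% had a smaller log2 fold change than PAL3 at 15 min. At 8 h only 76% did, and 20.1% of genes were called higher.

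The level of PAL3 at later times was also compared with 15 min directly. That time has the highest mean of PAL3 in these same values, which makes calls of a lower level more likely. PAL3 was lower than at 15 min at 1 h (log2 fold change -0.78, adjusted p = 0.0223), 2 h (-0.85, 0.0135), 4 h (-0.82, 0.00455), 8 h (-0.60, 0.0227) and 24 h (-0.73, 0.00682). Of all genes tested, 3.52%, 6.8%, 10%, 13% and 13.3% were called lower in these comparisons. The calls at 4 h and 24 h held without any single library. The 1 h call was lost without 15 min replicate 1 (0.0997) or 3 (0.104) or 1 h replicate 2 (0.0595) or 3 (0.0657). The 2 h call was lost without 15 min replicate 3 (0.0539) or either 2 h library (0.0681 and 0.111), and the 8 h call without 15 min replicate 1 (0.0544) or 3 (0.0811) or 8 h replicate 1 (0.13). The call of PAL3 at 8 h against control was lost without control replicate 1 (0.211), 8 h replicate 2 (0.156) or 8 h replicate 3 (0.137). In the order of its means (control, 2 h, 4 h, 1 h, 24 h, 8 h, then 30 min, with 15 min highest) no step between neighbours passed the test.

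PAL4 was first called at 2 h. Its control libraries held 21.0, 27.8 and 30.0 TPM, and 15 min had 29.0, 37.4 and 34.5 TPM, an overlap by 1 library. It then held 32.4 and 33.2 TPM (30 min), 47.0, 35.7 and 38.2 TPM (1 h), and 53.7 and 40.0 TPM (2 h). At 4 h it was at 43.5, 36.8 and 33.3 TPM, at 8 h at 42.1, 62.6 and 50.1 TPM, and at 24 h at 49.8, 46.5 and 33.9 TPM. From 30 min on every library lay above all controls. PAL4 was higher than control at 2 h (log2 fold change 0.81, limma, adjusted p = 0.0387), 8 h (0.95, SE 0.19, adjusted p = 0.00121) and 24 h (0.70, adjusted p = 0.00908), and at 15 min its difference was 0.35 (95% interval -0.05 to 0.76, adjusted p = 0.267).

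PAL4 was higher at 8 h than at 15 min (0.59, limma, adjusted p = 0.0269), a call that 16.7% of genes received. It was also higher at 8 h than at 30 min (0.62, adjusted p = 0.0292), a call that 22.9% received. The first of these was lost without 15 min replicate 1 (0.0933) or 8 h replicate 2 (0.134) or 3 (0.0603), and the second without either 30 min library (0.0926 and 0.0979) or 8 h replicate 2 (0.115) or 3 (0.0559). Its 8 h call against control held without any single library, the 24 h call was lost without control replicate 1 (0.0559), and the 2 h call was lost in 6 of 22 such fits, with 0.375 the highest adjusted p (without 2 h replicate 1). In the order of its means (control, 30 min, 15 min, 4 h, 1 h, 24 h, then 2 h, with 8 h highest) no step between neighbours passed the test.

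PAL5, the least abundant member, was at 6.55, 8.41 and 7.28 TPM in the control and above that range in all 19 treated libraries, which held 9.41 to 17.4 TPM. As for PAL2, the share of all genes with this separation over all times was not computed. The group means of PAL5 after LCO lay close together, from 11.04 ± 2.57 TPM at 1 h to 13.2 ± 0.967 TPM at 15 min, against 7.41 ± 0.938 TPM in the control (n = 3 each). It was called higher at 15 min (log2 fold change 0.76, limma, adjusted p = 0.0323), 4 h (0.71, 0.0372), 8 h (0.69, 0.0154) and 24 h (0.72, 0.0125). No comparison between treated groups passed the threshold, and in the order of its means (control, 1 h, 30 min, 2 h, 8 h, 4 h, 24 h, with 15 min highest) no step between neighbours passed it. The 15 min and 4 h calls were lost without control replicate 1 (0.135 and 0.149) or control replicate 3 (0.0747 and 0.0884), among other libraries. The 8 h call was lost without control replicate 1 (0.0634) or 8 h replicate 2 (0.101), and the 24 h call without control replicate 1 (0.0528), 24 h replicate 1 (0.0524) or 24 h replicate 2 (0.0574).

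By time, 4 of the 5 PAL genes were called higher at 15 min, where 4.33% of the genes tested were called higher. None was called at 30 min (0.839% of genes) or 1 h (1.61%) in limma, although 4 and 3 members had an unadjusted p under 0.05. The members called higher numbered 2 at 2 h (1.98% of genes) and 3 at 4 h (4.61%). All 5 were called at 8 h (20.1%), and 3 of them at 24 h (20.1%). No member was called lower at any time, and the log2 fold change was positive in all 35 comparisons of a member with control. The median log2 fold change of the members went from 0.76 at 15 min to 0.50 at 1 h and 0.95 at 8 h, with 0.70 at 24 h, while that of all genes tested lay between -0.02 and 0.05. All comparisons share the same 3 controls. Control replicate 1 had the lowest level of the 3 for every member, and it enters all 35 values. The F test over all 7 times called PAL1 (adjusted p = 0.0112), PAL2 (0.000313), PAL3 (0.00335) and PAL4 (0.0106) but not PAL5 (0.0568), in a table where 58.9% of genes were called.

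**Figure D2:**
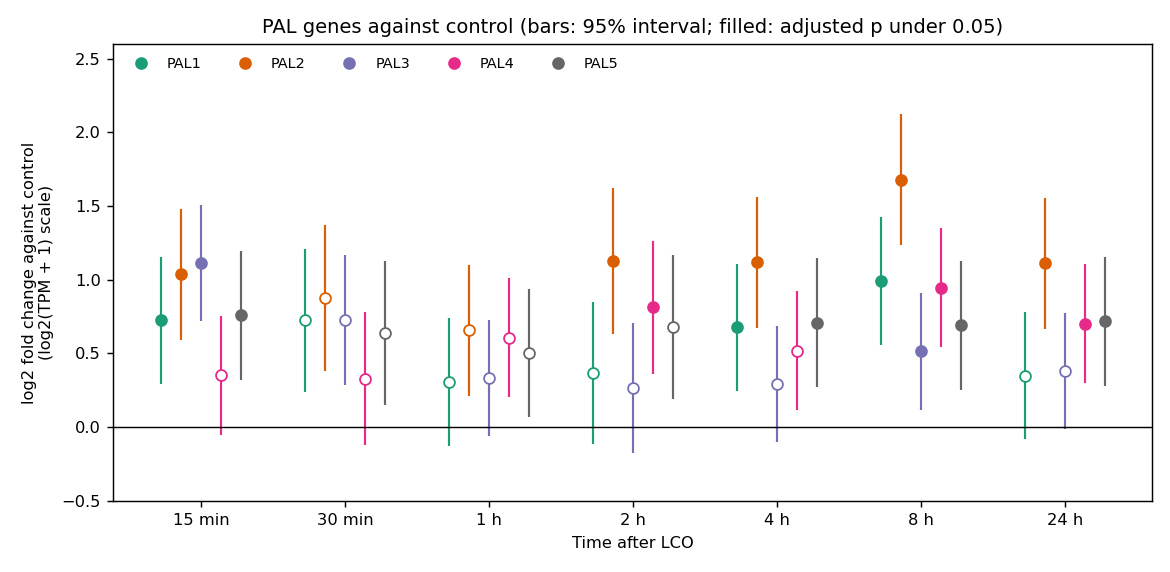
Log2 fold change against control on the log2(TPM + 1) scale (vertical axis) for each PAL gene at each time after LCO. Bars are 95% intervals of the limma fit and filled points have an adjusted p under 0.05; PAL2 is called at 5 times and reaches 1.68 at 8 h, and PAL3 falls from 1.11 at 15 min to 0.27 at 2 h.

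Every library of a time lay above every control library for all 5 members at 30 min and 2 h, and for 4 of 5 at each other time. Among all genes tested the shares, in order of time, were 11.3%, 16%, 9.85%, 19.1%, 20.1%, 31.3% and 30.2%. The member that overlapped was PAL4 at 15 min, PAL1 at 1 h and PAL3 at 4 h, 8 h and 24 h. Without 15 min replicate 2, the library of that time with the most genes at 0, the same 4 members were called at 15 min, with PAL1 at 0.86 and PAL3 at 1.23, while the share of all genes called higher went from 4.33% to 12%. With the 6 libraries of 15 min and control alone in the fit, no member was called at 15 min (adjusted p = 0.0754 for PAL3 and 0.236 for PAL1). The share of all genes called in that fit was not computed, so this count has no background beside it. Without control replicate 1, 2 members were called at 15 min, 3 at 8 h, 1 each at 4 h and 24 h, and 0 at 2 h, against 2.09%, 14.2%, 2.29%, 14.7% and 0.971% of all genes.

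Whether members moved differently was tested on the log2 ratio of a pair of members within each library, by a permutation test of the F statistic over the 8 groups, adjusted over the 10 pairs. The ratio changed over the groups for 6 of 10 pairs, and for 5 to 9 when single libraries were left out. The pairs share members, so they are not independent of each other. How often pairs of other genes would pass was not computed, and 58.9% of single genes were called by the F test over the times. The lowest p was that of PAL2 to PAL3, although the group means of the log2 ratio spanned slightly more for PAL3 to PAL4 (1.31) than for PAL2 to PAL3 (1.24). PAL2 stood at 1.10 ± 0.0254 times the level of PAL3 in the control (n = 3), 1.05 ± 0.141 times at 15 min and 1.24 ± 0.274 times at 30 min (n = 2). The ratio was then 1.39 ± 0.144 at 1 h, 2.01 ± 0.148 at 2 h (n = 2), 1.97 ± 0.173 at 4 h, 2.49 ± 0.276 at 8 h and 1.84 ± 0.151 at 24 h. All libraries from 1 h on lay above all 3 controls, and those of 15 min and 30 min fell on both sides of the control range. The permutation p was 1e-05, the smallest that 100000 permutations can give, and the adjusted p was 0.0001. Leaving out single libraries gave 0.0001 to 0.0002.

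Within the subgroup of PAL1 and PAL3 the ratio also changed (permutation test, adjusted p = 0.00025). PAL1 stood at 1.62 ± 0.0835 times PAL3 in the control, at 1.24 ± 0.117 times at 15 min, and at 2.27 ± 0.304 times at 8 h (n = 3 each). The 15 min libraries were all below the control range, those of 2 h, 4 h and 8 h all above it, and at 24 h the ratio was 1.59 ± 0.182. Within the other subgroup, PAL4 to PAL5 changed (adjusted p = 0.0138), from 3.54 ± 0.500 in the control to 2.56 ± 0.410 at 15 min and 4.10 ± 0.582 at 8 h; how reads shared by these 2 genes were divided is not known. For PAL2 to PAL4 (adjusted p = 0.0572) and PAL2 to PAL5 (0.0528) the test missed the threshold, although the group means of the log2 ratio spanned 0.73 and 0.99.

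The ratio of PAL1 to PAL2 changed as well (permutation test, adjusted p = 0.0016). PAL1 was above PAL2 in every control library, by 1.36 to 1.55 times, and PAL2 was above PAL1 in all 8 libraries of 2 h, 8 h and 24 h. PAL3 to PAL4 (adjusted p = 0.000333) went from 4.59 ± 0.243 in the control to 7.87 ± 1.77 at 15 min and 3.11 ± 0.542 at 2 h (n = 2). PAL1 to PAL4 passed (adjusted p = 0.0395), with mean log2 ratios from 2.40 at 2 h to 3.24 at 30 min, and lost its call in 10 of 22 fits without 1 library. PAL1 to PAL5 (0.371) and PAL3 to PAL5 (0.0533) missed the threshold, with group means that spanned 0.67 and 0.77.

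**Figure D3:**
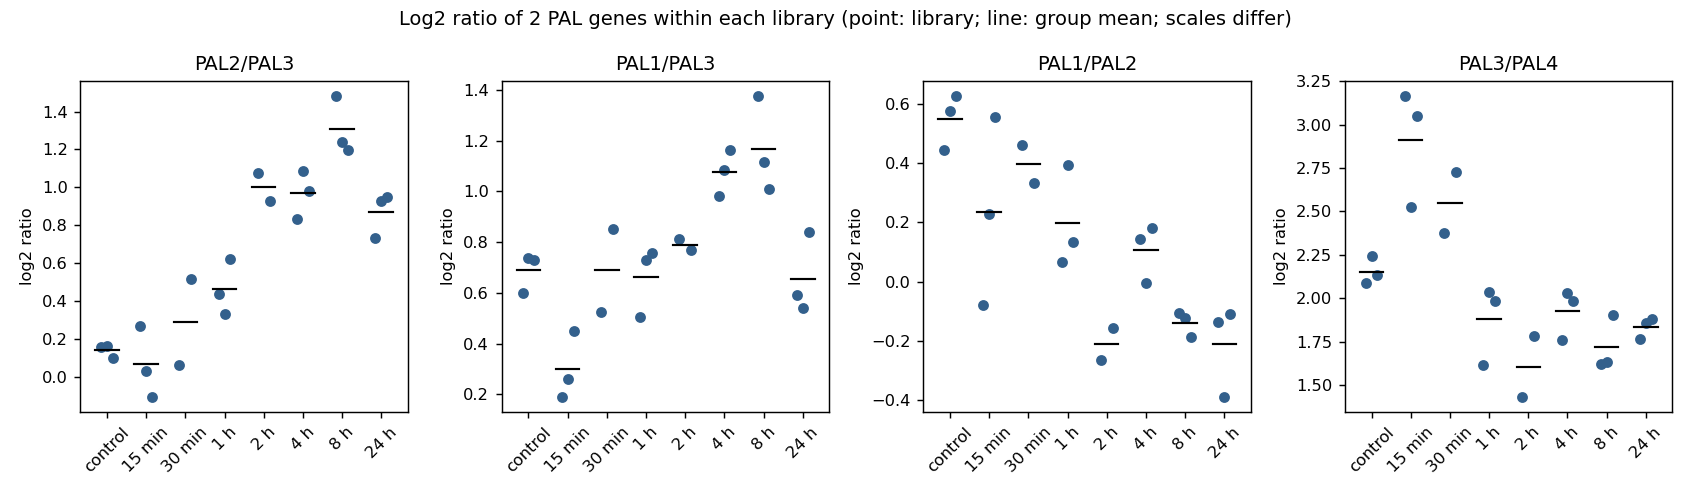
Log2 ratio of the levels of a pair of PAL genes within each library (vertical axis, scales differ), by group, for 4 pairs. Points are libraries and lines group means; the PAL2 to PAL3 ratio goes from 0.14 in the control to 1.31 at 8 h, and the PAL1 to PAL3 ratio is lowest at 15 min.

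The make-up of the summed PAL level is given as a description without a test. PAL1 made up 40.4 ± 1.53% of it in the control, PAL2 27.6 ± 0.805%, PAL3 25.0 ± 0.384%, PAL4 5.46 ± 0.358% and PAL5 1.56 ± 0.228% (n = 3). At 15 min PAL3 was at 28.8 ± 0.249%, with 28.5% to 28.9% in single libraries, above the 24.6% to 25.4% of the controls. At 8 h PAL2 was at 40.6 ± 0.715% and PAL3 at 16.4 ± 1.57%. At 24 h PAL2 was at 38.4 ± 1.94%, PAL1 at 33.1 ± 2.27% and PAL3 at 21.0 ± 1.16%. The shares of PAL2 at 2 h, 4 h, 8 h and 24 h, 34.8% to 41.2% over these libraries, were all above the 26.7% to 28.3% of the controls.

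**Figure D4:**
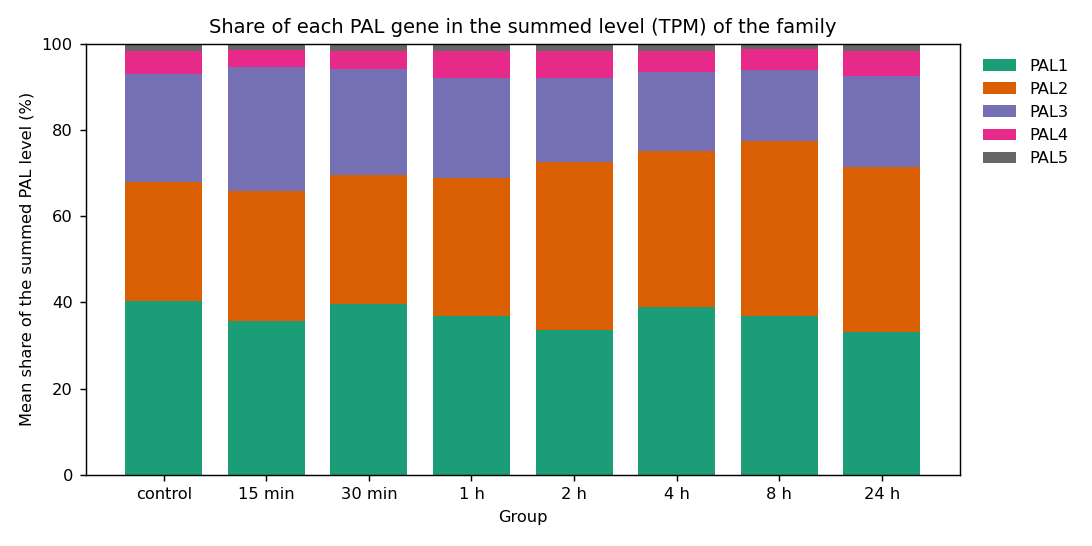
Mean share of each PAL gene in the summed level of the 5 genes (percent, stacked to 100), by group; SDs are in the text. The share of PAL2 goes from 27.6% in the control to 40.6% at 8 h, and that of PAL3 goes from 28.8% at 15 min to 16.4% at 8 h.

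Libraries of the same group also differed in ways that members shared. As deviations from the group mean of log2(TPM + 1), PAL1, PAL2 and PAL3 went together over the 22 libraries, with r of 0.802 to 0.831 among them, and PAL4 and PAL5 had r = 0.737. Between these sets r was 0.143 to 0.611. These are descriptions, and the points share library composition. How reads shared by PAL4 and PAL5 were divided, which bears on their r, is not known. All 5 members were below their group mean in control replicate 1, 2 h replicate 2, 4 h replicate 3, 8 h replicate 1 and 24 h replicate 3. Over all libraries, group differences included, r was highest for PAL1 with PAL2 (0.829) and lowest for PAL3 with PAL4 (0.224).

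Each PAL gene had a single transcript in the transcript table, so no switch between transcripts of a member could be seen. The levels there, normalized separately, differed from the gene table by at most 2.86%. Of the 17 calls against control, 14 were also made for the transcript. The exceptions were PAL4 at 2 h and PAL1 and PAL5 at 4 h.

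The genes whose log2(TPM + 1) followed a PAL gene most closely were sought among the 16901 genes that averaged 5 TPM or more. The highest Pearson r over the 22 libraries was 0.911, for PAL3 with Potri.001G241800, and 0.90 for PAL2 with Potri.015G031100; the files do not pair these identifiers with names. The top r was 0.883 for PAL1, 0.870 for PAL4 and 0.771 for PAL5. No other PAL gene was among the 3 closest of any member: PAL2 ranked 4 for PAL1, PAL2 ranked 11 and PAL4 ranked 12 for PAL5, and PAL3 ranked 2426 for PAL2. The closest genes depended on the measure of likeness, since Spearman's rho or group means kept at most 1 of the 3 for each member.

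The genes that follow PAL in the pathway were described through lists of identifiers drawn up for the purpose, whose gene identities were not checked against an annotation, so no single gene is named. In the list drawn up as monolignol enzymes after PAL, which make the building blocks of lignin, 6 of 16 genes were called higher at 15 min, 1 at 2 h, then 5 at 4 h and 12 at 8 h, and 8 at 24 h. At 30 min and 1 h limma called 0, with 1 and 2 higher at an unadjusted p under 0.05, and none was called lower at any time (1 at 24 h unadjusted). The median log2 fold change of this list was 0.66 at 15 min and 1.10 at 8 h. In the list drawn up as flavonoid and tannin genes, 0 of 18 were called up to 2 h in limma. At an unadjusted p under 0.05, 1 was higher (2 h) and 1 lower at 30 min, 4 lower at 1 h and 3 lower at 2 h, and over these times the smallest and largest log2 fold changes were -0.997 and 1.22. From this list 14 were called higher at 4 h, 17 at 8 h and 15 at 24 h, none lower, with medians of 1.19, 1.53 and 1.78. The background shares called higher are those given for the PAL genes.

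A list of 5 identifiers drawn up as cellulose synthases of the secondary wall, markers of wood-forming cells, summed to 8.61 to 17.1 TPM in the control and 20.3 to 41.1 TPM at 30 min. At 8 h the sum was 21.5 to 25.5 TPM, and the 24 h libraries ranged from 12.8 to 34.8 TPM. None of the 5 was at 0 in every library. In limma 1 of 5 was called higher at 8 h and 1 of 5 at 24 h, near the 20.1% of all genes called higher at each of these times, and 0 at the other times or lower; at an unadjusted p under 0.05, 3 were higher at 30 min and no others at these times. The list therefore lay above its control range at 30 min and 8 h, and its part in the PAL values was not tested.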

How the data were processed

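RNA sequencing was made from pools of poplar roots. The authors' deposited tables hold the natural log of (TPM + 1) per gene and per transcript, quantile-normalized across libraries, as the table names and values show; kallisto and sleuth are named in the submitters' processing notes without version or role, and a build of the reference was not given in the sources used here. Quantile normalization removes differences in total output, and TPM keeps no depth, so no counting interval is given. The identifiers name Populus trichocarpa genes, whereas the samples are Populus tremula x alba; how this, or reads shared between similar members such as PAL4 and PAL5, affects the values was not examined.

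Values were back-transformed to TPM and analysed as log2(TPM + 1), which understates changes of genes with low values. Genes averaging 1 TPM or more entered a fit with 1 mean per group over all 22 libraries in limma 3.58.1 (R 4.3.3; mean-variance trend; 14 residual degrees of freedom), with two-sided tests, Benjamini-Hochberg adjustment over all genes and a threshold of 0.05. All pairs of groups were compared in this fit, each comparison adjusted over genes but not over the number of comparisons. Ratios of members used 100000 permutations in Python 3.11.15 with numpy 2.4.6; plots used matplotlib 3.10.9. Procedures were tested on simulated data. The rule for naming genes took the 5 members, the 3 genes closest to each by Pearson r (at most 2 printed, since no names were given) and listed genes with an annotation, of which there were none. The design had assumed TPM rather than its natural log and planned markers of root and leaf by description, which are void without an annotation. The members and lists were chosen with earlier results of these data known. Alternatives were the pseudocount, the filter, library weights, a replicate block, leaving out libraries and the transcript table.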

Additional observations from a re-analysis of the deposited data

How the results depend on the processing

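Counts are of the 5 PAL genes called higher than control unless named otherwise, and the causes of the changes were not tested. No log2 fold change of a member against control changed sign in 1120 repeats. In many of these the sign could not change. Leaving out a library of another group, or changing only the filter or the trend, keeps the log2 fold change the same. A call was lost in 58 repeats and gained in 8. Of the 17 calls, 5 held in every alternative: PAL2 at 4 h, 8 h and 24 h, and PAL1 and PAL4 at 8 h. Leaving out single libraries gave 2 to 4 at 15 min, 0 to 3 at 30 min, 0 to 2 at 2 h, 1 to 3 at 4 h, 3 to 5 at 8 h and 1 to 3 at 24 h; at 30 min, 3 were called without 30 min replicate 1, in a fit that called 7.42% of all genes higher against 0.839% with it, and 1 without 15 min replicate 2 (1.48% of genes). In the first of these fits the 1 library left at 30 min, replicate 3, is that with the most genes at 0 and is taken to vary as libraries elsewhere do. Over single libraries left out, the share of all genes called higher was 2.09% to 12% at 15 min and 2.04% to 5.87% at 4 h. The share was 14.2% to 22.8% at 8 h and 14.7% to 22.7% at 24 h. At 2 h it was 0.971% to 2.49% in the fits that kept both libraries of that time. Without a filter on low values, which adds genes to the adjustment, the count was 2 at 15 min, 1 at 2 h and 1 at 4 h (2.23%, 1.21% and 2.5% of genes). With only the libraries of both groups it was 0 at 15 min and 1 at 2 h, with no share of all genes computed for these fits. At 1 h, where 1.61% of all genes were called higher, library weights gave 2 members with 9.99% of genes, and leaving out 15 min replicate 2 together with 30 min replicate 3 gave 1 with 2.85%. The F test of PAL5 passed with a filter at 5 TPM (adjusted p = 0.05 after rounding), library weights (0.0221), the transcript table (0.0455) and a replicate block (0.0426), and ranged from 0.031 to 0.237 without single libraries.

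Deviations of same-numbered libraries had r from -0.355 to 0.386 over 70 pairs (median 0.048). Those of other numbers had r from -0.503 to 0.445 over 141 pairs (median -0.0313). Of 22 libraries, 12 correlated best with their own number, and how many would do so without pairing was not computed. This is only a hint of pairing from the data and was not tested. Since the labels give no shared origin and not every pair deviated together, the numbers were not taken as pairs. The replicate block gave 1 at 2 h (2.25% of all genes), the lost call being PAL4 (0.0591), and changed no other call of a member against control. Among ratios of members, single libraries left out gave adjusted p values of 0.0116 to 0.0731 for PAL1 to PAL4, 0.0181 to 0.116 for PAL2 to PAL4, 0.0102 to 0.198 for PAL2 to PAL5 and 0.0326 to 0.149 for PAL3 to PAL5. With 15 min replicate 2 and 30 min replicate 3 left out, the monolignol list had 10 genes called at 15 min (13.9% of all genes) and 1 at 1 h, and the flavonoid list 1 at 15 min; with the filter at 5 TPM the monolignol list had 1 at 1 h. Lists by description of root and leaf were not run.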
